A study of Homo sapiens with 2 samples.

Results

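In the day 160 library of human stem cell-derived astrocyte progenitors, 105 of 9972 passing cells (1.05%) carried transcripts of both RAMP1 and GPC3 and none of MKI67 or TOP2A. They are called RAMP1+ GPC3+ cells here. Passing cells had at least 1000 detected genes and at most 15% of their UMIs (unique molecular identifiers, counted RNA molecules) from mitochondrially encoded genes. A passing cell was chosen when it held at least 1 UMI of RAMP1, at least 2 UMIs of GPC3 and 0 UMIs of MKI67 and TOP2A, which are transcribed in dividing cells. The other 9867 passing day 160 cells were the comparison, and 7211 of them also lacked MKI67 and TOP2A.

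The cells came from H7, an established human embryonic stem cell line, and were grown toward astrocytes with LIF, a cytokine, and with BMP4 and FGF1, growth factors, which all cells of both libraries received. One library was made at day 160 and another at day 220 with a 10x Genomics Chromium 3′ kit, and each combined 3 differentiations that no label separates. A single line, without an untreated culture, limits the data as a model, and each time point is 1 sample. No p-value was therefore computed, and each interval below is a 95% interval for counting error only.

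RAMP1 is a single-pass membrane protein that joins the calcitonin receptor-like receptor to form the receptor for calcitonin gene-related peptide, a neuropeptide. GPC3 is a glypican, a heparan sulfate proteoglycan anchored to the cell surface by a lipid, known for modulating Hedgehog and Wnt ligands. NTRK2 encodes TrkB, the receptor for brain-derived neurotrophic factor, and is abundant in astrocytes in a truncated form. Radial glia are the stem cells of the developing brain, line its ventricles, and give rise to neurons and later to astrocytes.

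The cells were chosen by their RAMP1, GPC3, MKI67 and TOP2A counts, so these values are given as a description. RAMP1 (chromosome 2, 237858893 to 237912114, GRCh38) had 1 to 25 UMIs per RAMP1+ GPC3+ cell with a median of 3, and 27 of the 105 cells held exactly 1. GPC3 (chromosome X, 133535745 to 133985895) had 2 to 23 UMIs per cell with a median of 3, and 38 cells sat at the lower limit of 2. Most cells were thus above the GPC3 limit, since 67 held 3 or more UMIs of GPC3 and 31 held 5 or more. Of the 27 cells at the RAMP1 limit of 1, 10 were also at the GPC3 limit of 2. Summed over cells and scaled to counts per 1e+06 UMIs (CPM), RAMP1 was at 221 CPM in RAMP1+ GPC3+ cells and 12.0 CPM in the other passing cells. GPC3 was at 259 CPM in RAMP1+ GPC3+ cells and 12.1 CPM in the others.

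Among all passing cells without MKI67 and TOP2A, RAMP1 was found more often in cells with more GPC3. With 5 or more UMIs of GPC3, 31 of 54 cells held RAMP1 (57.4%, exact binomial interval 43.2 to 70.8), and with 3 to 4 UMIs 36 of 57 did (63.2%). With exactly 2 UMIs, just inside the limit, 38 of 88 cells held RAMP1 (43.2%). Just outside, with 1 UMI, 73 of 332 did (22.0%), and with 0 UMIs 329 of 6785 did (4.85%, 4.35 to 5.39). The median depth was 9048 UMIs in cells with 0 UMIs of GPC3 and 13382 in cells with 1. It was 12489.5 in cells with 2, 12144 in cells with 3 to 4 and 13754 in cells with 5 or more. Depth was thus lowest in cells without GPC3 but did not follow the shares from 1 UMI upward. Its part in these shares was not tested.

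**Figure D1:**
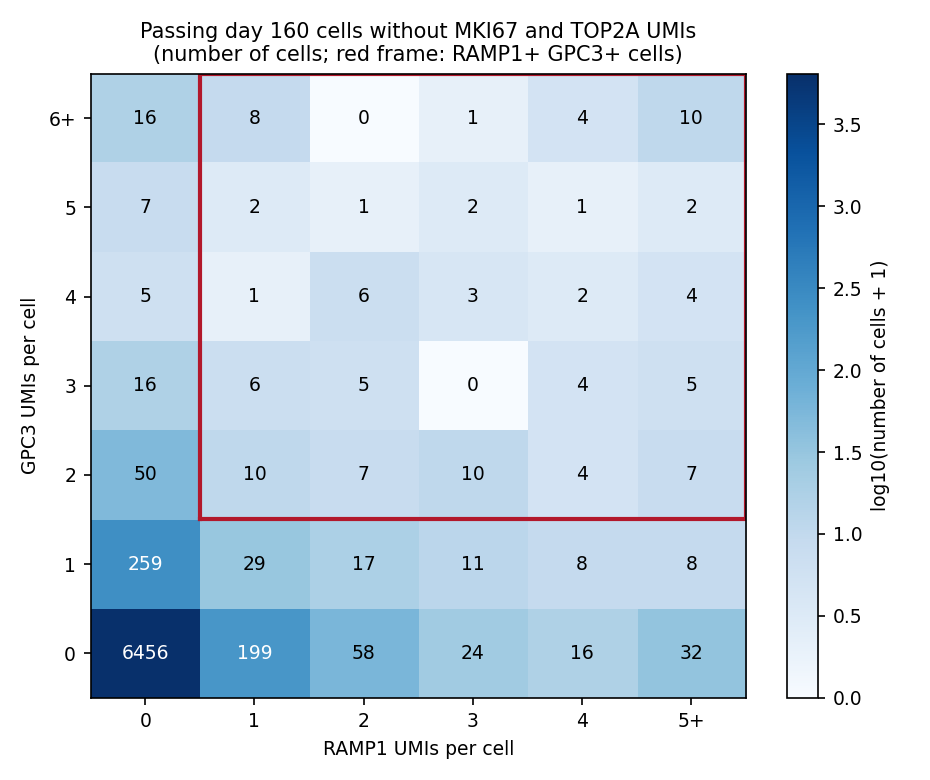
Passing day 160 cells without MKI67 and TOP2A UMIs, by RAMP1 UMIs and GPC3 UMIs per cell, with the number of cells written in each square and the chosen cells outlined. The bottom left square holds the 6456 cells with neither gene, and the 105 RAMP1+ GPC3+ cells spread over all RAMP1 counts.

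Both genes were nearly absent from another part of the culture. In a cluster of cells led by CALB2, SCGN, BCL11B and DCX, genes of inhibitory neurons and their precursors, 3 of 1474 cells without MKI67 and TOP2A held RAMP1 (0.204%, 0.0420 to 0.594) and 3 held GPC3, at a median depth of 5798 UMIs. The part of free RNA in the droplets, in this cluster or in the chosen cells, was not tested. RAMP1+ GPC3+ cells were deeper, with a median of 13588 UMIs (6603 to 84264) against 10435 in all others and 9302 in the others without MKI67 and TOP2A. The mitochondrial share of UMIs was 11.2% in RAMP1+ GPC3+ cells and 11.7% in the others. A doublet caller marked 8 of the 105 cells and 575 of the 9867 others.

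The cells stood together on genes other than those that chose them. When cells not marked as doublets were clustered with RAMP1, GPC3, MKI67 and TOP2A left out, 91 of the 97 remaining RAMP1+ GPC3+ cells fell in 1 of 12 clusters. That cluster held 424 cells, and its leading genes by fold were NEFL, PRDM8, TPM2, NTRK2, B3GAT2, SEMA3E, PDLIM4, IGFBP7, ZIC1 and HOXB-AS1. With those 4 genes kept, 92 of the 97 shared a cluster of 405 cells. The RAMP1+ GPC3+ cells made up 21.5% of the 424.

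Over all genes the RAMP1+ GPC3+ cells differed moderately from the other passing cells. Of 9059 genes at 10 CPM or more in at least 1 set, 201 stood at least 2-fold above the others in RAMP1+ GPC3+ cells (2.22%) and 375 at least 2-fold below (4.14%), as ratios of CPM + 1. The median log2 ratio of all these genes was -0.05. Many of the lower genes were lower by choice of the cells, since cells with MKI67 or TOP2A had been kept out of one side only. Against the 7211 others without MKI67 and TOP2A, 198 of 8878 genes were higher (2.23%) and 192 lower (2.16%). Without the deepest RAMP1+ GPC3+ cell, described below, 175 of 8790 were higher (1.99%) and 191 lower (2.17%) in that comparison.

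**Figure D2:**
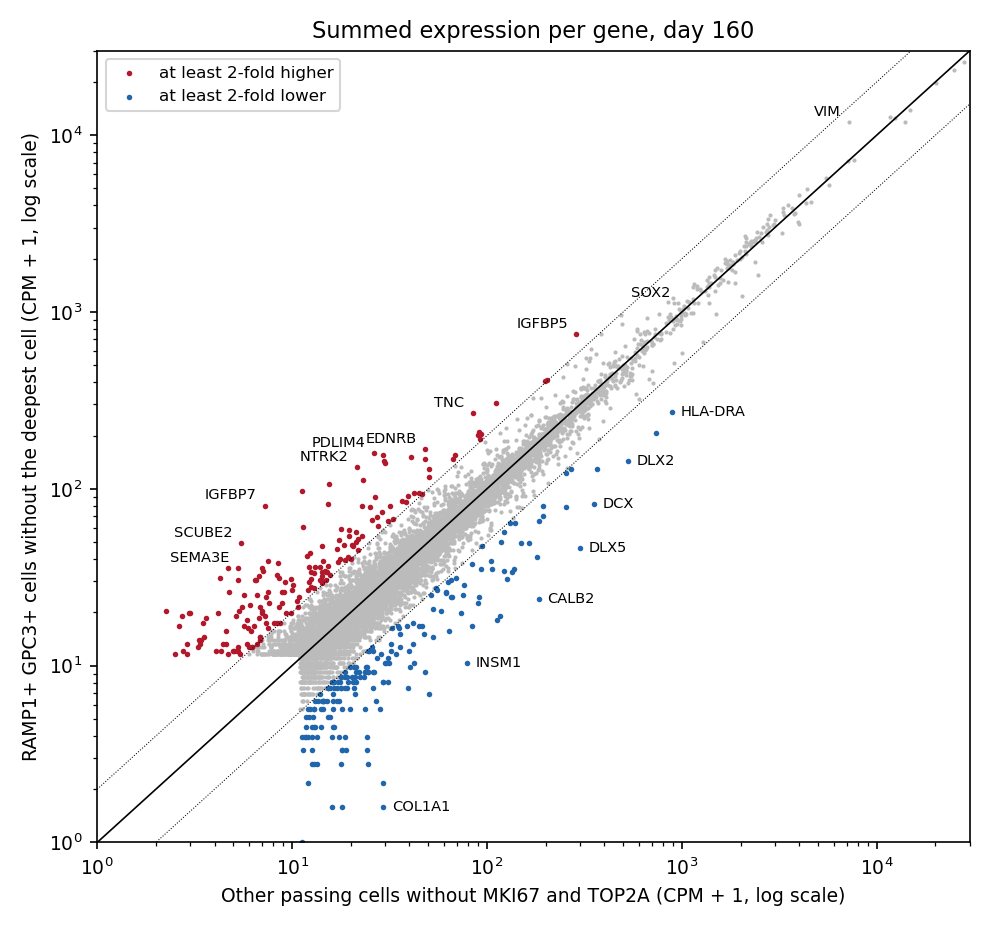
Summed CPM + 1 per gene on log axes, RAMP1+ GPC3+ cells without the deepest cell on the vertical axis against other passing cells without MKI67 and TOP2A on the horizontal axis. The dotted lines mark 2-fold. IGFBP7, SCUBE2, SEMA3E, NTRK2, PDLIM4, EDNRB and TNC lie above the upper line, and DLX2, DLX5, DCX, CALB2, INSM1, HLA-DRA and COL1A1 below the lower.

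NTRK2 (chromosome 9, 84668551 to 85027070), the remaining marker named for these cells, was not used to choose them. It was at 125 CPM (109 to 143) in RAMP1+ GPC3+ cells and 17.6 CPM in the other passing cells, a 7.12-fold difference (6.18 to 8.17). The 224 UMIs were spread over 68 of the 105 cells, with at most 10 in 1 cell, and 37 cells held none. After cells were thinned to 5000 UMIs, 47.6% of RAMP1+ GPC3+ cells held NTRK2 (37.8 to 57.6), against 6.63% of the others without MKI67 and TOP2A. Thinning left out the 617 of those 7211 others that were shallower than 5000 UMIs, and 0 RAMP1+ GPC3+ cells. Each thinned share is from 1 random draw, and the mean over all draws was 42.2% for NTRK2 in RAMP1+ GPC3+ cells. Unthinned, 64.8% of RAMP1+ GPC3+ cells and 12.8% of the others without MKI67 and TOP2A held it. In the CALB2-led cluster it was in 0.909% of 1100 cells at 5000 UMIs, with 374 shallower cells left out. Of the other receptors and partners in the neurotrophin family, NTRK3, the neurotrophin-3 receptor, was at 24.0 CPM in RAMP1+ GPC3+ cells and 13.8 CPM in the others. SORT1, a sorting receptor for precursor neurotrophins, was at 111 CPM in RAMP1+ GPC3+ cells and 148 CPM in the others. Neither passed 2-fold.

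Most of the listed partners of RAMP1 itself had no UMI in the chosen cells. CALCRL, the calcitonin receptor-like receptor that RAMP1 needs for its known role, had 0 UMIs in the 105 cells, where a count of 3 corresponds to 1.68 CPM, and 0.362 CPM in the others. A level like that of the others would thus not have been detectable in the 105 cells. RAMP3 also had 0 UMIs in RAMP1+ GPC3+ cells, and RAMP2 had 4 UMIs in 4 cells. In all, 7 of the 11 genes listed as RAMP relatives, receptors and ligands had 0 UMIs there. The list still summed to 1707 CPM in RAMP1+ GPC3+ cells and 1874 CPM in the others, and all 105 cells held a UMI of it. CRCP, a component protein of that receptor, was at 27.9 CPM in RAMP1+ GPC3+ cells and 24.4 CPM in the others, and neither it nor GNAS passed 2-fold.

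In a list of other glypicans and of syndecans, which are also heparan sulfate proteoglycans, 0 of 6 measured genes were at least 2-fold higher and 1 was lower. Over all genes, 2.22% were higher and 4.14% lower. GPC2, a glypican of developing neurons, was at 25.1 CPM in RAMP1+ GPC3+ cells and 54.4 CPM in the others. The syndecans SDC2 and SDC3 lay just under 2-fold above the others, with SDC3 at 129 CPM in RAMP1+ GPC3+ cells against 68.4 CPM. GPC1, the glypican with the most UMIs there, was at 421 CPM in RAMP1+ GPC3+ cells and 361 CPM in the others.

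The 20 genes with the highest ratios against all others, at 20 CPM or more in either set, are given by what they encode, NTRK2 being one of them. IGFBP7, a secreted protein of the IGF-binding family, was at 100 CPM (85.9 to 116) in RAMP1+ GPC3+ cells and 6.14 CPM in the others, 16.3-fold apart, and 42 cells held it. Of its 179 UMIs, 44 lay in the deepest cell, and without that cell it was at 79.2 CPM. SCUBE2, a secreted glycoprotein that helps release lipid-modified Hedgehog ligands, was at 45.8 CPM (36.4 to 56.9) in RAMP1+ GPC3+ cells and 4.73 CPM in the others, 9.69-fold apart. It was found in 45 of the 105 cells with at most 6 UMIs in any one, so that no single cell carried it. TGFB2, a ligand of the TGF-beta family, was at 109 CPM in RAMP1+ GPC3+ cells and 22.0 CPM in the others, with UMIs in 69 cells. EFNA5, an ephrin ligand, and SEMA3E, a secreted semaphorin, both guide axons. EFNA5 was at 29.1 CPM in RAMP1+ GPC3+ cells and 4.52 CPM in the others. SEMA3E was at 33.0 CPM in RAMP1+ GPC3+ cells and 5.56 CPM in the others. Both were thinly spread, with at most 5 UMIs of EFNA5 and 4 of SEMA3E in any cell. MASP1, a protease of the complement lectin pathway, was at 33.0 CPM in RAMP1+ GPC3+ cells and 5.11 CPM in the others. MMP17, a membrane-bound metalloprotease, was at 31.9 CPM in RAMP1+ GPC3+ cells and 5.74 CPM in the others.

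Others of the 20 encode enzymes of surface sugars, an adhesion molecule, an actin-associated protein and neurofilaments. B3GAT2, a glucuronyltransferase of the HNK-1 carbohydrate, was at 100 CPM in RAMP1+ GPC3+ cells and 16.3 CPM in the others, in 75 cells. ST8SIA4, which builds polysialic acid on the adhesion molecule NCAM, was at 27.9 CPM in RAMP1+ GPC3+ cells and 4.08 CPM in the others. CDH11, a cadherin, was at 25.1 CPM in RAMP1+ GPC3+ cells and 3.67 CPM in the others. PDLIM4, an actin-associated PDZ and LIM domain protein, was at 179 CPM in RAMP1+ GPC3+ cells and 24.8 CPM in the others. It was found in 78 of the 105 cells, more than any other of the 20. Most of the chosen cells thus held its RNA. CHCHD10, a protein of the mitochondrial intermembrane space, was at 57.6 CPM in RAMP1+ GPC3+ cells and 10.1 CPM in the others, in 53 cells. KLHL4 was at 29.6 CPM in RAMP1+ GPC3+ cells and 5.25 CPM in the others. NEFL and NEFM, neurofilament subunits, were at 96.7 and 29.1 CPM in RAMP1+ GPC3+ cells, against 9.03 and 4.56 CPM in the others. A minority of the cells carried them, 30 with NEFL and 17 with NEFM.

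All of the 20 genes with the highest ratios also passed 2-fold against the others without MKI67 and TOP2A, and after the others were weighted to the depth of the chosen cells. For 4 of the 20, one cell held most of the UMIs. The deepest RAMP1+ GPC3+ cell, with 84264 UMIs against 69713 in the next, held 418 of 474 UMIs of CRYAB, a small heat shock protein. It also held 157 of 296 UMIs of TPM2, a tropomyosin, and 27 of 37 UMIs of ELN, elastin. Another cell held 177 of 265 UMIs of APOE, the main lipid carrier of astrocytes. Without the deepest cell, CRYAB was at 32.8 CPM in RAMP1+ GPC3+ cells, against 23.7 CPM in the others, and ELN at 5.86 CPM in RAMP1+ GPC3+ cells, against 2.68 CPM in the others. Neither passed 2-fold then as a ratio of CPM + 1. TPM2 still passed, at 81.5 CPM in RAMP1+ GPC3+ cells against 15.5 CPM in the others, with UMIs in 42 cells. The deepest cell clustered apart, in a cluster led by COL1A1, CCL2 and TAGLN, and it was not marked as a doublet.

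The same cell set the values of contractile genes as a group. Of 9 measured genes of smooth muscle and contractile fibres, 6 passed 2-fold upward and 1 downward with it, at a median log2 ratio of 1.53, where 2.22% of all genes passed upward and 4.14% downward. Without that cell, 1 of 8 was higher than in all others and 1 lower, at a median of 0.41, where 2.11% of all genes were higher and 4.12% lower. Against others without MKI67 and TOP2A and without that cell, 2 of 8 were higher and 1 lower, at a median of 0.51, where 1.99% of all genes were higher and 2.17% lower. TAGLN, an actin-binding protein of smooth muscle, was at 880 CPM with that cell and 407 CPM without it in RAMP1+ GPC3+ cells, against 236 CPM in all others, and 27 cells held it. CNN1, a calponin, was at 38.0 CPM with it and 4.11 CPM without it, against 8.78 CPM in the others, which turned its direction. COL1A1, a fibrillar collagen of mesenchymal cells, was at 8.38 CPM with it and 0.586 CPM without it in RAMP1+ GPC3+ cells, a single UMI once it was left out, against 36.5 CPM in the others. All 32 UMIs of COL1A2, another chain of that collagen, lay in 1 further cell.

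Radial glia markers were present in the chosen cells but did not set them apart. All 16 listed radial glia genes were measured, and 0 passed 2-fold upward and 1 downward, where 2.22% of all genes passed upward and 4.14% downward. Their median log2 ratio was 0.04, against -0.05 over all genes. VIM, an intermediate filament, was at 11665 CPM in RAMP1+ GPC3+ cells and 7147 CPM in the others. SOX2, a stem cell transcription factor, was at 1088 CPM in RAMP1+ GPC3+ cells and 989 CPM in the others. PROM1, a stem cell membrane protein, was at 11.7 CPM in RAMP1+ GPC3+ cells and 33.7 CPM in the others, which passed 2-fold. Against the others without MKI67 and TOP2A and without the deepest cell, the median of the 16 genes was 0.02. The name radial glia is therefore not used for these cells.

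Outer radial glia markers, genes of the stem cells found away from the ventricle, were mixed. TNC, a matrix glycoprotein, was at 374 CPM (266 CPM without the deepest cell) in RAMP1+ GPC3+ cells and 90.3 CPM in the others, and 93 of 105 cells held it. HOPX, a homeodomain protein, was at 720 CPM in RAMP1+ GPC3+ cells and 322 CPM in the others, and stayed under 2-fold against the others without MKI67 and TOP2A, where it was at 384 CPM. The remaining 7 of the 9 measured genes did not pass 2-fold against all others, among them FAM107A at 27.9 CPM in RAMP1+ GPC3+ cells and 54.8 CPM in the others. In that comparison 2.22% of all genes passed upward and 4.14% downward. At 5000 UMIs, 61.0% of RAMP1+ GPC3+ cells held TNC (50.9 to 70.3), against 18.4% of the others without MKI67 and TOP2A and 6.91% of the CALB2-led cluster. Unthinned, 88.6% of RAMP1+ GPC3+ cells and 31.0% of the others without MKI67 and TOP2A held it.

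Astrocyte genes were likewise divided. GFAP, the intermediate filament of astrocytes, was at 881 CPM in RAMP1+ GPC3+ cells and 543 CPM in the others. AQP4, a water channel of astrocyte end-feet, was at 17.3 CPM (11.8 to 24.6) in RAMP1+ GPC3+ cells and 4.93 CPM in the others, with UMIs in 18 cells. SPARCL1, a secreted matrix protein of mature astrocytes, was at 20.7 CPM in RAMP1+ GPC3+ cells and 75.2 CPM in the others. Of 13 measured astrocyte genes, 3 passed 2-fold upward and 1 downward, at a median log2 ratio of 0.23, where 2.22% of all genes passed upward and 4.14% downward. Against the others without MKI67 and TOP2A, 2 passed upward and 1 downward, at a median of 0.05. APOE was among the genes that passed upward in both comparisons, and 1 cell held most of its UMIs, as given above. EDNRB, the endothelin B receptor, was at 159 CPM in RAMP1+ GPC3+ cells and 44.0 CPM in the others, and 76 of 105 cells held it. S100B, a calcium-binding protein of astrocytes, was at 157 CPM in RAMP1+ GPC3+ cells and 171 CPM in the others.

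**Figure D3:**
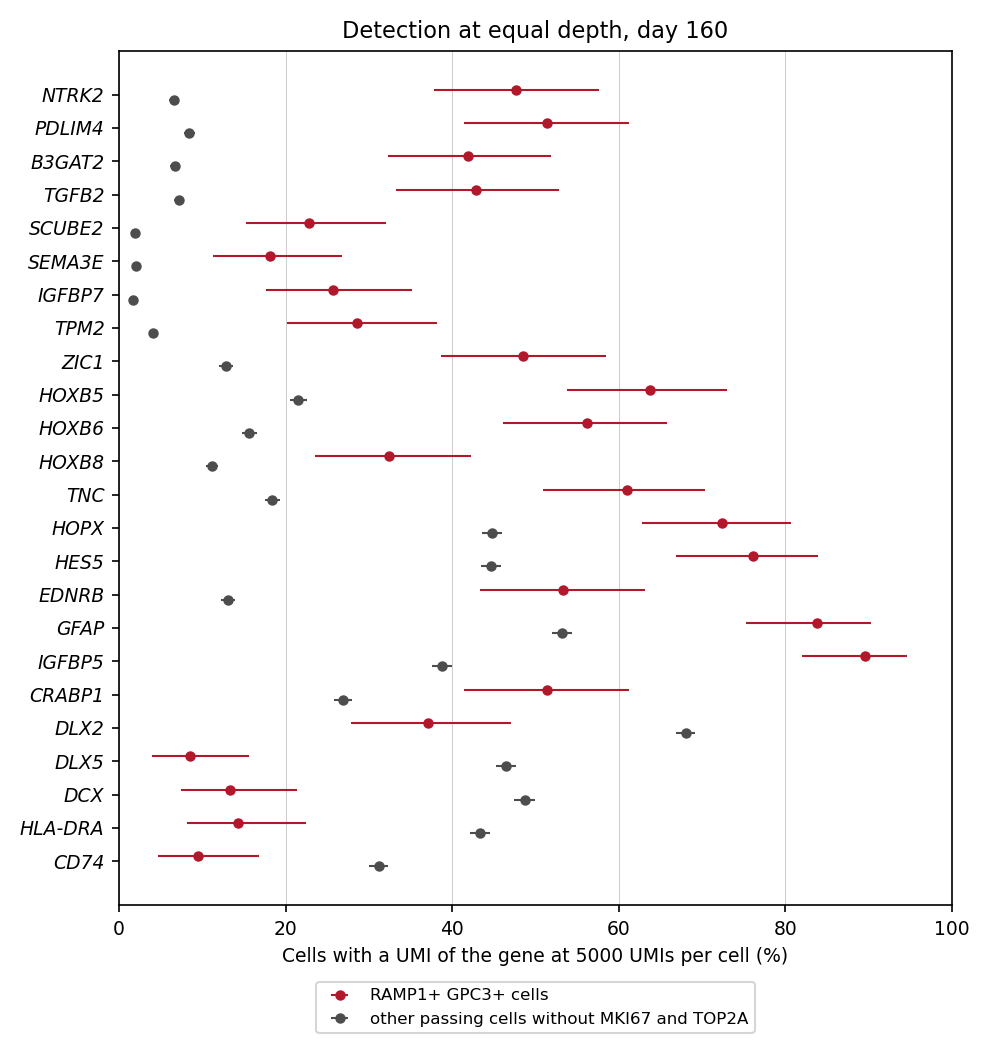
Percent of cells with at least 1 UMI of each gene after thinning to 5000 UMIs the cells that had at least that many, RAMP1+ GPC3+ cells (n = 105) and other passing cells without MKI67 and TOP2A (n = 6594), with exact binomial 95% intervals. PDLIM4 was found in 51.4% of RAMP1+ GPC3+ cells and 8.42% of the others, and DLX5 in 8.57% of RAMP1+ GPC3+ cells and 46.4% of the others.

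Most measured genes of a midbrain, hindbrain and spinal cord list were higher, and the position of the cells was not tested. Of 24 genes listed for midbrain, hindbrain and spinal cord, 10 had 0 UMIs in RAMP1+ GPC3+ cells and 10 were measured. Of the 10 measured, 7 passed 2-fold upward in RAMP1+ GPC3+ cells and 1 downward, at a median log2 ratio of 1.22. Over all genes, 2.22% passed upward and 4.14% downward. Against the others without MKI67 and TOP2A and without the deepest cell, 6 passed upward and 1 downward, at a median of 1.18. In that comparison 1.99% of all genes passed upward and 2.17% downward. ZIC1, a zinc finger factor of dorsal neural tissue, was at 136 CPM (120 to 155) in RAMP1+ GPC3+ cells and 30.2 CPM in the others, with UMIs in 90 cells. HOXB6 (chromosome 17, 48595751 to 48604992) was at 157 CPM in RAMP1+ GPC3+ cells and 41.8 CPM in the others. HOXB8 (chromosome 17, 48611377 to 48614939) was at 87.7 CPM in RAMP1+ GPC3+ cells and 22.7 CPM in the others. Both belong, with HOXB4 and HOXB5 below, to the HOXB cluster of neighbouring genes, which mark hindbrain and spinal levels in the embryo. HOXB5 was at 167 CPM in RAMP1+ GPC3+ cells and 63.7 CPM in the others. HOXB4 was at 102 CPM in RAMP1+ GPC3+ cells and 48.2 CPM in the others, and it stayed under 2-fold against the others without MKI67 and TOP2A, at 54.1 CPM. The annotated spans of HOXB7 and HOXB8 overlap, so that reads between these neighbours may be uncertain.

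All of the 105 cells carried HOXB transcripts, a trait they shared with a larger cluster. None of them lacked all 10 HOXB genes (exact binomial upper limit 3.45%), while 3796 of 7211 others without MKI67 and TOP2A did (52.6%). At least 4 HOXB genes were found in 89 RAMP1+ GPC3+ cells (84.8%, 76.4 to 91.0) and in 1700 of those others (23.6%). The median was 5 HOXB genes per cell in RAMP1+ GPC3+ cells and 0 in those others, at the median depths of 13588 and 9302 UMIs given above. At 5000 UMIs per cell, a setting added here with the data in view, 3 of 105 RAMP1+ GPC3+ cells lacked all 10 genes (2.86%, 0.593 to 8.12) and 29 held at least 4 (27.6%, 19.3 to 37.2). At that depth, 60.0% of the others without MKI67 and TOP2A lacked all 10 and 15.6% held at least 4. A cluster led by CRABP1, with HOXB6, HOXB5, HOXB8 and HOXB4 among its leading genes, held no chosen cell. Of its cells without MKI67 and TOP2A, 1 of 1099 lacked all 10 genes at 5000 UMIs and 73.6% held at least 4, as a description since these genes helped to form it. HOXB transcripts were thus not particular to the RAMP1+ GPC3+ cells. At 5000 UMIs, HOXB6 was in 56.2% of RAMP1+ GPC3+ cells and 15.7% of the others without MKI67 and TOP2A, and in 0.636% of the CALB2-led cluster. Unthinned, 85.7% of RAMP1+ GPC3+ cells and 19.8% of the others without MKI67 and TOP2A held it.

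Most forebrain genes did not pass 2-fold. NR2F1, a nuclear receptor of the developing forebrain, was at 63.7 CPM in RAMP1+ GPC3+ cells and 187 CPM in the others. Of 10 measured forebrain genes, 0 passed 2-fold upward and 3 downward, DLX1, DLX2 and NR2F1, where 4.14% of all genes passed downward. NKX6-2, a homeodomain factor of the ventral neural tube, was at 17.3 CPM in RAMP1+ GPC3+ cells and 2.15 CPM in the others, in 10 cells. ZIC2, a relative of ZIC1, was the 1 lower gene of the midbrain, hindbrain and spinal list.

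Genes of neuronal precursors were lower. Of 12 measured, 7 passed 2-fold downward in RAMP1+ GPC3+ cells, against 4.14% of all genes, and 0 upward, at a median log2 ratio of -1.46. Against the others without MKI67 and TOP2A and without the deepest cell, 6 of 12 passed downward, where 2.17% of all genes did. DLX2, a homeodomain factor of inhibitory neuron precursors, was at 137 CPM in RAMP1+ GPC3+ cells and 560 CPM in the others, which was 4.09-fold higher in the others (3.61 to 4.65). DLX5, a later factor of that family, was at 43.0 CPM in RAMP1+ GPC3+ cells and 268 CPM in the others. DCX, a microtubule protein of migrating neurons, was at 78.2 CPM in RAMP1+ GPC3+ cells and 304 CPM in the others. Only 12 of 105 RAMP1+ GPC3+ cells held DLX5 and 20 held DCX, while 58 held DLX2. At 5000 UMIs, 37.1% of RAMP1+ GPC3+ cells held DLX2 (27.9 to 47.1), against 68.0% of the others without MKI67 and TOP2A. Without thinning, the shares were 55.2% of RAMP1+ GPC3+ cells and 80.4% of the others without MKI67 and TOP2A.

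Neuron genes went both ways. Of 12 measured, 2 passed 2-fold upward, NEFL and NEFM, and 6 downward, against 2.22% of all genes upward and 4.14% downward. CALB2, a calcium-binding protein of inhibitory neurons, was at 21.8 CPM in RAMP1+ GPC3+ cells and 150 CPM in the others, and 6 cells held it. GAD2, an enzyme of GABA synthesis, was at 16.2 CPM in RAMP1+ GPC3+ cells and 111 CPM in the others. STMN2, a growth cone protein of neurons, had 3 UMIs, all in 1 cell, which gives 1.68 CPM in RAMP1+ GPC3+ cells against 12.2 CPM in the others. GAP43, another growth cone protein, was at 502 CPM in RAMP1+ GPC3+ cells and 252 CPM in the others, just under 2-fold. INSM1, a factor of neuronal precursors named here after its values were seen, was at 8.94 CPM in RAMP1+ GPC3+ cells and 74.1 CPM in the others.

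**Figure D4:**
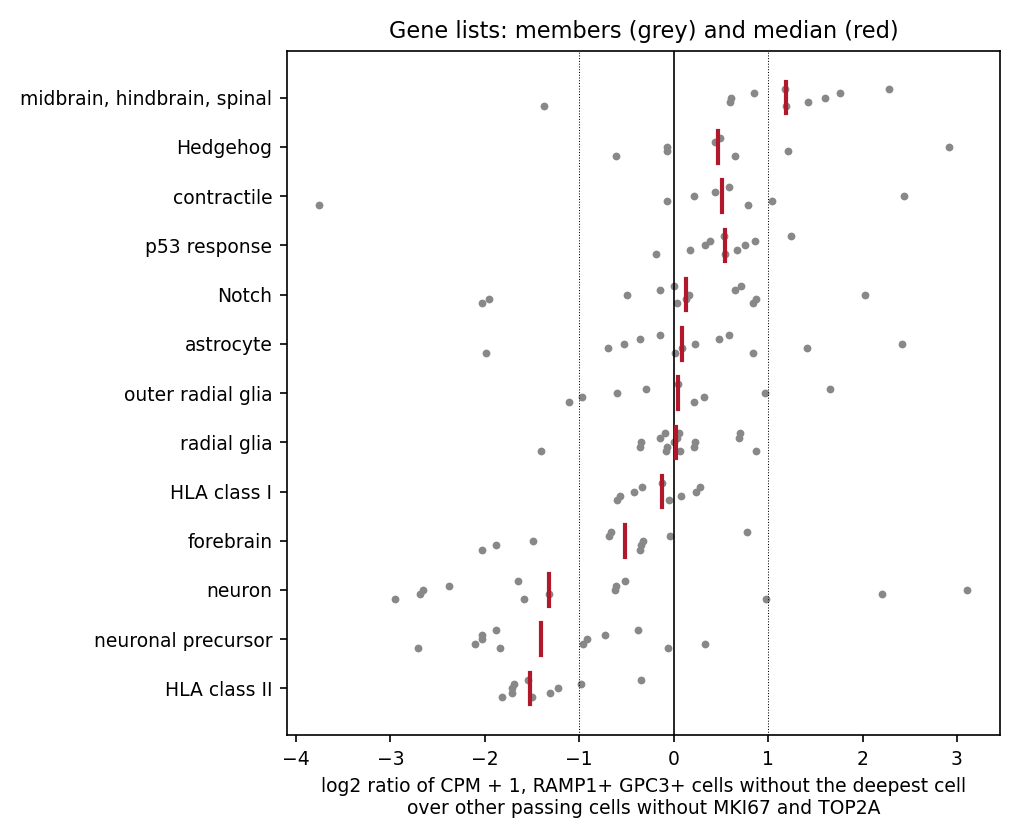
Log2 ratio of CPM + 1 for each measured gene (grey points) of 13 gene lists, RAMP1+ GPC3+ cells without the deepest cell over other passing cells without MKI67 and TOP2A, with each list's median in red. The midbrain, hindbrain and spinal list has the highest median (1.18) and HLA class II the lowest (-1.52); dotted lines mark 2-fold.

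Antigen presentation genes of class II were lower. HLA class II genes, which present peptides to helper T cells, passed 2-fold downward in 8 of 10, against 4.14% of all genes, and upward in 0, at a median log2 ratio of -1.34. HLA-DRA was at 258 CPM (235 to 282) in RAMP1+ GPC3+ cells and 728 CPM in the others. CD74, the chain that class II molecules carry until they are loaded, was at 123 CPM in RAMP1+ GPC3+ cells and 308 CPM in the others. HLA-DRA was found in 26 of the 105 cells, and 1 of them held 146 of its 461 UMIs. At 5000 UMIs it was in 14.3% of RAMP1+ GPC3+ cells (8.22 to 22.5) and 43.3% of the others without MKI67 and TOP2A, and in 15.6% of the CALB2-led cluster, so that the chosen cells stood at the level of that cluster. Without thinning, the shares were 24.8% of RAMP1+ GPC3+ cells and 47.8% of the others without MKI67 and TOP2A. Class II genes include close copies of one another, between which reads may be split. HLA class I genes, carried by nearly all cells, passed 2-fold in 0 of 9, with HLA-B at 281 CPM in RAMP1+ GPC3+ cells and 412 CPM in the others.

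No signalling list had more than 2 genes at least 2-fold higher. In the Hedgehog list, 2 of 8 measured genes were at least 2-fold higher, where 2.22% of all genes were. HHIP, which binds Hedgehog ligands and is also induced by them, was at 33.0 CPM in RAMP1+ GPC3+ cells and 6.27 CPM in the others, and 21 cells held it. CDON, a Hedgehog co-receptor, was at 45.3 CPM in RAMP1+ GPC3+ cells and 20.2 CPM in the others, while PTCH1, the Hedgehog receptor, did not pass 2-fold, at 38.6 CPM in RAMP1+ GPC3+ cells and 28.9 CPM in the others. None of the 9 measured Wnt genes passed 2-fold, nor did any of the 11 FGF and ERK genes or the 8 LIF and STAT3 genes. IGFBP5, a secreted IGF-binding protein, was at 718 CPM in RAMP1+ GPC3+ cells and 266 CPM in the others, in 100 of 105 cells. In the BMP list, 2 of 7 genes were higher and 1 lower, where 2.22% of all genes were higher and 4.14% lower. ID3, a target of BMP signalling, was at 48.1 CPM in RAMP1+ GPC3+ cells and 19.4 CPM in the others, while its relative ID2 was at 18.4 CPM in RAMP1+ GPC3+ cells and 50.4 CPM in the others.

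Notch signalling keeps neural stem cells undifferentiated: a ligand on one cell triggers cleavage of the receptor on the next, and the freed fragment joins the DNA-binding protein RBPJ at target promoters. The target HEY2 passed 2-fold upward and the ligands DLL1 and DLL3 downward. HES5 (chromosome 1, 2528745 to 2530245), a target, was at 591 CPM (556 to 627) in RAMP1+ GPC3+ cells and 324 CPM in the others, under 2-fold, and 93 of 105 cells held it. HEY2, another target, was at 12.3 CPM in RAMP1+ GPC3+ cells and 2.52 CPM in the others. The ligand DLL1 was at 7.26 CPM in RAMP1+ GPC3+ cells and 31.2 CPM in the others, and DLL3 was also at least 2-fold lower. In all, 1 of 13 measured Notch genes was higher and 2 were lower, against those 2.22% and 4.14% of all genes. The HES5 promoter is shown because it holds the binding motif of RBPJ on both strands, chr1:2530214-2530513 of GRCh38.p14, minus strand, from RefSeq, 250 bases before to 50 after the start. Capitals mark the motif TGTGGGAA, which begins 82 bases before the start, and its reverse complement TTCCCACA, which begins 224 bases before it.
HES5: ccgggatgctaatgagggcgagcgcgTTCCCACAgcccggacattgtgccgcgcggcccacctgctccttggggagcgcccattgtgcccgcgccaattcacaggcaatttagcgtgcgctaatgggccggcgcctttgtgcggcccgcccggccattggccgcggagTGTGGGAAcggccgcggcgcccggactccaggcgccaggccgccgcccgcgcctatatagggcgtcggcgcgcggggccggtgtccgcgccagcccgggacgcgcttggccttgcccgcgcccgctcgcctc
The motif, on either strand, was found in 3 of 11 promoters of Notch genes in the RefSeq table and in 1.72% of all 27305 promoters of that length. A match is a description of the letters and says nothing of binding in these cells.

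Cells with only one of the chosen genes lay between for NTRK2. Among cells without MKI67 and TOP2A, NTRK2 was at 131 CPM (114 to 150) in RAMP1+ GPC3+ cells without the deepest cell. It was at 88.5 CPM in 73 cells with RAMP1 and 1 UMI of GPC3, 68.2 CPM in 94 cells with GPC3 only, 49.3 CPM in 329 cells with RAMP1 only and 16.4 CPM in 6456 cells with neither. SCUBE2, PDLIM4, B3GAT2 and TGFB2 were also highest in the cells with both genes and lowest in the cells with neither, although for SCUBE2, B3GAT2 and TGFB2 the intervals of cells with both and of cells with RAMP1 and 1 UMI of GPC3 overlapped. HOXB6 was as high in cells with RAMP1 only as in cells with both, at 145 CPM in RAMP1+ GPC3+ cells without the deepest cell, 156 CPM in cells with RAMP1 only and 77.5 CPM in cells with GPC3 only. CRABP1, a retinoic acid-binding protein, was highest in cells with RAMP1 only, at 2104 CPM, against 760 CPM in RAMP1+ GPC3+ cells without the deepest cell. HES5 was at 619 CPM in RAMP1+ GPC3+ cells without the deepest cell, 742 CPM in cells with RAMP1 and 1 UMI of GPC3 and 287 CPM in cells with RAMP1 only.

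**Figure D5:**
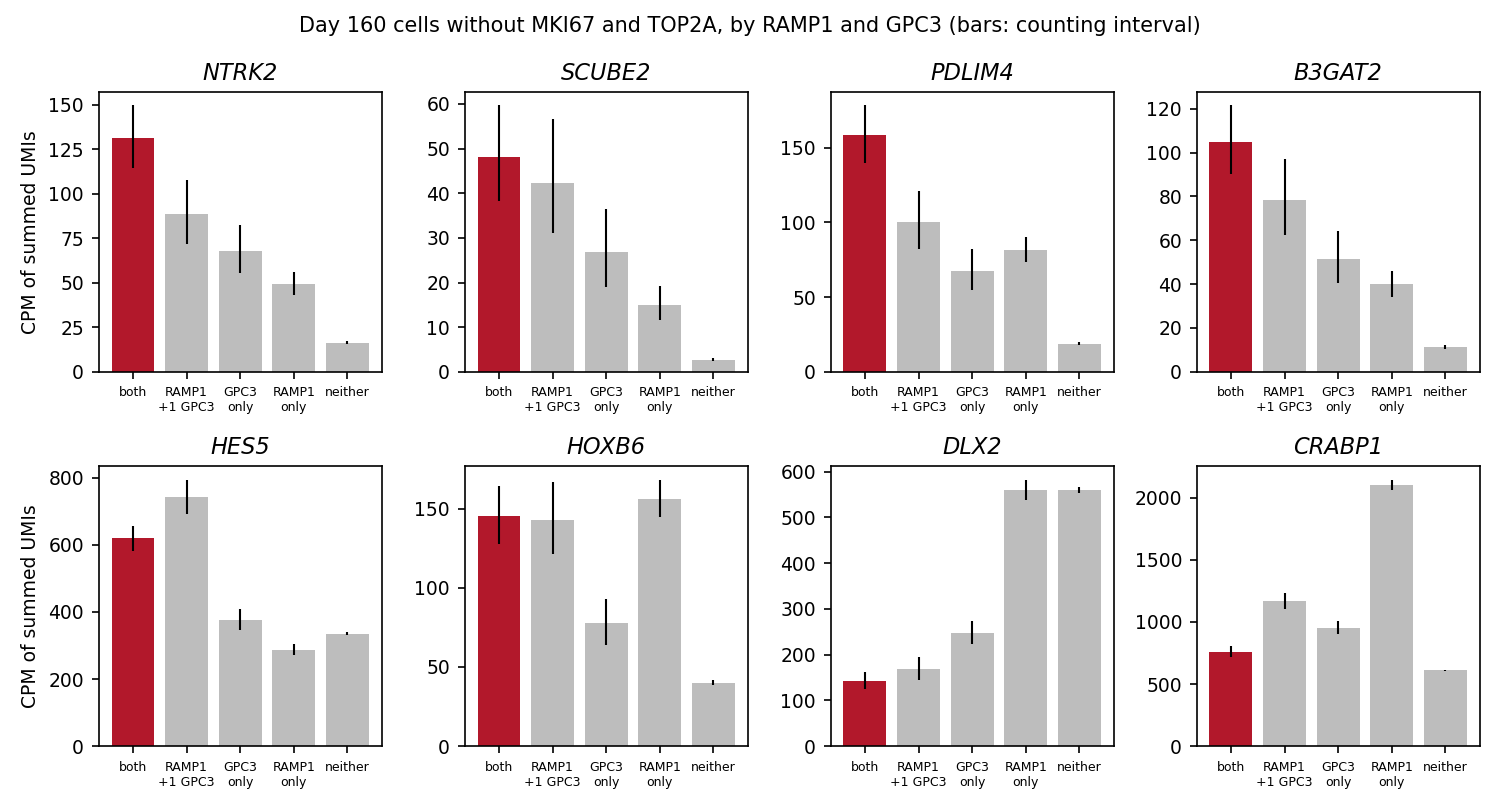
CPM of 8 genes in day 160 cells without MKI67 and TOP2A, for RAMP1+ GPC3+ cells without the deepest cell (both), cells with RAMP1 and 1 UMI of GPC3, with 2 or more UMIs of GPC3 and no RAMP1 (GPC3 only), with RAMP1 and no GPC3 (RAMP1 only) and with neither; bars mark Poisson 95% intervals. NTRK2, SCUBE2, PDLIM4 and B3GAT2 are lowest in cells with neither, and DLX2 is lowest in cells with both.

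Cells that the rule had left out carried several of these genes too. The 282 cells of the 424-cell cluster that lacked MKI67 and TOP2A and were not chosen had RAMP1 at 130.5 CPM and GPC3 at 82.9 CPM. NTRK2 was at 106 CPM, SCUBE2 at 41.3 CPM and HOXB6 at 178 CPM there, given as a description since these genes helped to form the cluster. A further 73 cells met the thresholds for RAMP1 and GPC3 but held MKI67 or TOP2A. NTRK2 was at 71.9 CPM in these 73 cells and 9.95 CPM in the other 2583 cells with MKI67 or TOP2A. DLX2 was at 264 CPM in the 73 cells and 631 CPM in the other 2583. Beyond the mitochondrial limit, 15 barcodes met the rule, and NTRK2 was at 126 CPM in them, from 23 UMIs, and 20.7 CPM in the other 2411. In both sets NTRK2 lay on the side it had in the chosen cells.

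The chosen cells also varied among themselves. The 26 cells with HLA-DRA had CD74 at 358 CPM and the 79 without it at 5.86 CPM, so these class II genes were found in the same minority of cells. The 70 cells with CRABP1 had GFAP at 700.0 CPM and HOPX at 506 CPM, against 1284 CPM and 1196 CPM in the 35 cells without it. The 68 cells with NTRK2 had CRABP1 at 476 CPM and CLU, a secreted chaperone of astrocytes, at 3263 CPM, against 1226 CPM and 1781 CPM in the 37 cells without it. The 20 cells with DCX had DLX5 at 147 CPM and the 85 without it at 3.84 CPM, from 5 UMIs. Median depth was 19783 UMIs in the cells with DCX and 12848 in those without, and its part in these splits was not tested.

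Of 7 measured imprinted genes, which are read from 1 parental copy, 2 passed 2-fold downward and 0 upward, where 4.14% of all genes passed downward and 2.22% upward. PEG10, derived from a retrotransposon, was at 38.0 CPM (29.5 to 48.2) in RAMP1+ GPC3+ cells and 190 CPM in the others. DLK1, a membrane ligand related to Notch ligands, was at 17.9 CPM in RAMP1+ GPC3+ cells and 71.1 CPM in the others, in 8 cells. Of 11 measured genes of the p53 response and cell-cycle arrest, 3 passed 2-fold upward, CDKN2A, CDKN2B and FAS, where 2.22% of all genes did. Against the others without MKI67 and TOP2A and without the deepest cell, 1 of 10 passed upward, where 1.99% of all genes did. CDKN2A, a cell-cycle inhibitor, was at 91.1 CPM in RAMP1+ GPC3+ cells and 40.9 CPM in the others. The deepest cell held 72 of its 163 UMIs, and without that cell it was at 53.4 CPM. FAS, a death receptor, overlaps ACTA2 in the annotation, so that its counts are uncertain if reads were counted without strand.

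Markers of other cell types ranged from absent to widespread in the chosen cells. None of 5 microglia genes had a UMI there, and 4 of 5 endothelial genes had none. Of 10 oligodendrocyte-lineage genes, 6 had 0 UMIs and 3 were measured, of which 1 was at least 2-fold lower, where 4.14% of all genes were. Those 10 genes summed to 428 CPM in RAMP1+ GPC3+ cells and 468 CPM in the others, and 102 of the 105 cells held any of them. PDGFRA, the platelet-derived growth factor receptor of oligodendrocyte precursors, made up most of that sum, at 334 CPM in RAMP1+ GPC3+ cells and 311 CPM in the others. Ependymal genes, of the ciliated cells that line the ventricles, summed to 67.1 CPM in RAMP1+ GPC3+ cells and 33.6 CPM in the others, and 66 of the 105 cells held any of them. Of the 2 measured, PIFO was at least 2-fold higher, at 34.1 CPM in RAMP1+ GPC3+ cells and 14.4 CPM in the others, where 2.22% of all genes were higher. Neither of the 2 passed 2-fold against the others without MKI67 and TOP2A. Choroid plexus genes summed to 36.9 CPM in RAMP1+ GPC3+ cells and 27.4 CPM in the others, and 43 cells held any. The part of these cell types in the results was not tested. Summed over 8 mesenchymal genes, the level was 42.5 CPM in RAMP1+ GPC3+ cells and 57.0 CPM in the others, and 20 of the 105 cells held any of them. The 14 chosen cells outside the 424-cell cluster, 8 of them the marked doublets, had a median of 25428 UMIs.

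The day 220 library held no such cell. Of 524 passing cells, 0 met the rule, which allows a share of up to 0.573% by a count of 3 cells, and 1 cell held enough of both genes together with MKI67 or TOP2A. RAMP1 was at 0.462 CPM over all passing day 220 cells and 14.9 CPM over those of day 160. GPC3 was at 1.77 CPM over the day 220 cells and 15.6 CPM over the day 160 cells. The day 220 cells were deeper, with a median of 46438 UMIs. Thinned to 10000 UMIs, 0 of 482 day 220 cells met the rule (upper limit 0.762%) and 58 of 5274 day 160 cells did (1.10%, 0.836 to 1.42). The libraries shared 3 barcodes, none of them a chosen cell. Day and library cannot be told apart here, as each day was 1 library.

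Genes of division were set by the choice of cells. Of 12 measured genes of mitosis, 12 were at least 2-fold lower in RAMP1+ GPC3+ cells than in all others, and 0 of 4 against the others without MKI67 and TOP2A once the deepest cell was left out. UBE2C, a ubiquitin-conjugating enzyme of mitosis, was at 4.47 CPM in RAMP1+ GPC3+ cells, against 196 CPM in all others and 6.34 CPM in the others without MKI67 and TOP2A. Other transcripts of division were still present, since 70 of the 105 cells held a UMI of the mitosis list and 90 held one of the S-phase list. All 15 genes with the lowest ratios against all others were of this kind.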

How the data were processed

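Raw UMI counts per gene and barcode, which the authors deposited as 10x matrices, carry Cell Ranger 7.0.1 in the file headers; the submitters' processing notes name hg38 and Seurat 4. The sources used here do not state how barcodes were filtered. The members and gene lists were chosen with earlier results of these data known. Counts were summed over the cells of each set, scaled to CPM, and compared as log2 of (CPM + 1) among genes of 10 CPM or more in at least 1 set, with 2-fold as the threshold. RAMP1, GPC3, MKI67 and TOP2A were left out of gene counts. Intervals are exact Poisson, conditional binomial or Clopper-Pearson at 95%. PCR copies were collapsed by UMI, and intervals cover counting error only.

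Named genes are the 20 highest and 15 lowest ratios at 20 CPM or more, up to 4 per list, and all measured relatives of RAMP1, GPC3 and NTRK2. Further list members, INSM1 and cluster leaders were named after their values were seen. A gene among the list members is not reported here. Of 36601 genes, 34616 matched GENCODE 29 (GRCh38), which gave coordinates. Doublets were marked with Scrublet and Leiden clusters (resolution 0.5) built in scanpy 1.11.5; thinned shares used 5000 UMIs per cell. In all, 14 planned and 2 added processing alternatives were tried. Of 13018 deposited day 160 barcodes, 620 fell under the gene limit. No cell met the rule at day 220, so that only the levels of RAMP1 and GPC3 over all passing cells are set beside day 160.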

Additional observations from a re-analysis of the deposited data

How the results depend on the processing

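No paired analysis was possible because each time point is 1 library, and no replicate could be left out. Of genes at least 2-fold higher (201) and lower (375), alternatives outside 1.5 times those counts gave 1019 higher and 1487 lower when the rule and counts were taken at 5000 UMIs per cell (29 RAMP1+ GPC3+ cells), 404 and 835 at a mitochondrial limit of 10% (36 such cells), 469 and 867 with no expression filter, 61 and 89 at 50 CPM, and 92 and 188 with a pseudocount of 10. The mean of each cell's CPM gave 307 higher. Others without MKI67 and TOP2A gave 192 lower, and 191 with the deepest cell also left out; leaving that cell out was added with the data in view. The first pair rests on fewer cells and fewer UMIs per set, and the part of this in the counts was not tested. The remaining alternatives kept both counts within 1.5 times.

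Directions turned, as log2 ratios, at 5000 UMIs per cell for CRYAB (-0.89), COL1A2 (-1.99), CDKN2B (-2.06), CNN1 (-2.18), TAGLN (-0.45), PIFO (-3.60), AGT (-2.50) and the contractile median (-0.45). These values rest on 29 RAMP1+ GPC3+ cells at 5000 UMIs each, where the limit of detection is higher than with all 105 cells. Loss of detection there was not tested. With 2 or more RAMP1 UMIs COL1A2 was at -1.63, and with 1 or more GPC3 UMIs ACTG2 at 1.32. Without the deepest cell CNN1 was at -0.94 and HSPG2 at -0.26, and at -0.41 and -0.020 against others without MKI67 and TOP2A. Against those others TYMS was at 0.45 and CENPA at 0.19, and without the deepest cell at 0.52 and 0.23. The cause was not tested, except that 1 cell held most UMIs of CNN1. Of 95 named genes past 2-fold, 67 stayed past it on the same side without the deepest cell and against others without MKI67 and TOP2A, 88 with depth-weighted others and 93 without marked doublets. At 1.68 CPM per 3 UMIs over all 105 RAMP1+ GPC3+ cells, lower levels in them were not detectable.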
